A study of Drosophila melanogaster
Gallus gallus with 8 samples.

Results

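DNA:RNA hybrids were mapped on chromosomes 3 and 5 of DT40 cells, a B-cell line of the chicken, by immunoprecipitation of hybrids and sequencing (DRIP-seq). The regions described are all rows with chromosome 3 or 5 in the 2 deposited lists of peaks, chosen by position alone. They number 7640 of 41445 peaks in wild type and 9073 of 48468 peaks in *primpol*, or 16713 of 89913 peaks in all. In wild type 5195 peaks lay on chromosome 3 and 2445 on chromosome 5. In *primpol* the numbers were 6165 and 2908.

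The groups were DT40 cells of wild type genotype and DT40 cells deficient in PrimPol, here called *primpol*. Both carried an addition of *Drosophila* S2 cells, at 3.75 DT40 cells to 1 S2 cell per the labels. Of the 8 libraries, each genotype had 2 S9.6 DRIP libraries, 1 input library without antibody and 1 DRIP library treated with RNase H. Both DRIP replicates of a genotype are assigned to 1 peak list, so no value below has a replicate error, no p-value between genotypes can be given, and no comparison between chromosomes was tested over samples.

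An R-loop forms when RNA pairs with its template DNA strand and leaves the other DNA strand unpaired. Such hybrids are known to arise where genes are transcribed, often near gene starts and gene ends. RNase H degrades the RNA in them, and the S9.6 antibody binds the hybrid itself. PrimPol lays down new primers during replication, so that synthesis can resume beyond an obstacle. Chromosomes 3 and 5 are among the macrochromosomes of the chicken, the large chromosomes that are in general poorer in genes than the microchromosomes. Coordinates are those of the Galgal5 assembly. The genes and bases at these positions were not analysed here.

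The lists rested on 46425192 wild type and 44735404 *primpol* DRIP tags after removal of duplicates, and on 23107894 and 30302032 input tags. The input was thus deeper in *primpol*, and the DRIP tags were more numerous in wild type. The part of depth in the differences between lists below was not tested. Scaling of the *primpol* list to the depth of the wild type input, which can only remove *primpol* peaks, turned the ratio of peak numbers (*primpol* over wild type) from 1.19 to 0.708 on chromosome 3 and from 1.19 to 0.677 on chromosome 5. As it acts on the *primpol* list alone, this scaling cannot tell which genotype would have more peaks at equal depth. With inputs of unlike depth and 1 list per genotype, the direction of the difference in peak number was not settled.

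Peaks were denser on chromosome 3 than over the whole lists, which held 40.5 peaks per Mb in wild type and 47.4 in *primpol*. Chromosome 5 was close to these values. Up to the last peak end, at 111.3 Mb on chromosome 3, there were 46.7 peaks per Mb in wild type and 55.4 in *primpol*. Chromosome 5, with its last peak end at 59.7 Mb, held 41.0 and 48.7 peaks per Mb. Peaks covered 6.06% of chromosome 3 in wild type and 7.56% in *primpol*, and 5.57% and 6.83% of chromosome 5. Chromosome 3 was close to chromosome 1, which had 47.7 and 57.9 peaks per Mb. Chromosome 5 lay nearer to chromosome 4, with 42.9 and 52.4, and chromosome 2 held more than all of these, with 62.4 and 68.0.

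Neither chromosome took a clearly different share of the *primpol* list. Chromosome 3 held 12.5% of the wild type list and 12.7% of the *primpol* list, a ratio of shares of 1.01 with a 95% interval of 0.980 to 1.05. Chromosome 5 held 5.90% of the wild type list, and its ratio of shares was 1.02 (0.965 to 1.07). Chromosomes 1 and 4, counted jointly, had a ratio of 1.04 (1.02 to 1.06). Chromosome 2 went the other way, with a ratio of 0.932 (0.909 to 0.955). Shares of the same list depend on each other. All intervals given here cover counting error only, with peaks taken as independent.

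The number of peaks changed severalfold along each chromosome. In full windows of 1 Mb, chromosome 3 had between 15 and 94 wild type peaks, with a median of 47 over 111 windows. In *primpol* the range was 15 to 110 and the median 56. Over the 59 windows of chromosome 5 the wild type counts ran from 14 to 78 with a median of 41, and the *primpol* counts from 10 to 102 with a median of 46. The variance of the counts was 4.28 times their mean in wild type and 7.24 times in *primpol* on chromosome 3, and 4.64 and 8.68 times on chromosome 5. Peaks placed independently at 1 rate would give a value near 1. Neighbouring windows resembled each other only in part, with a Spearman correlation of 0.307 in wild type on chromosome 3 and 0.525 on chromosome 5.

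**Figure D1:**
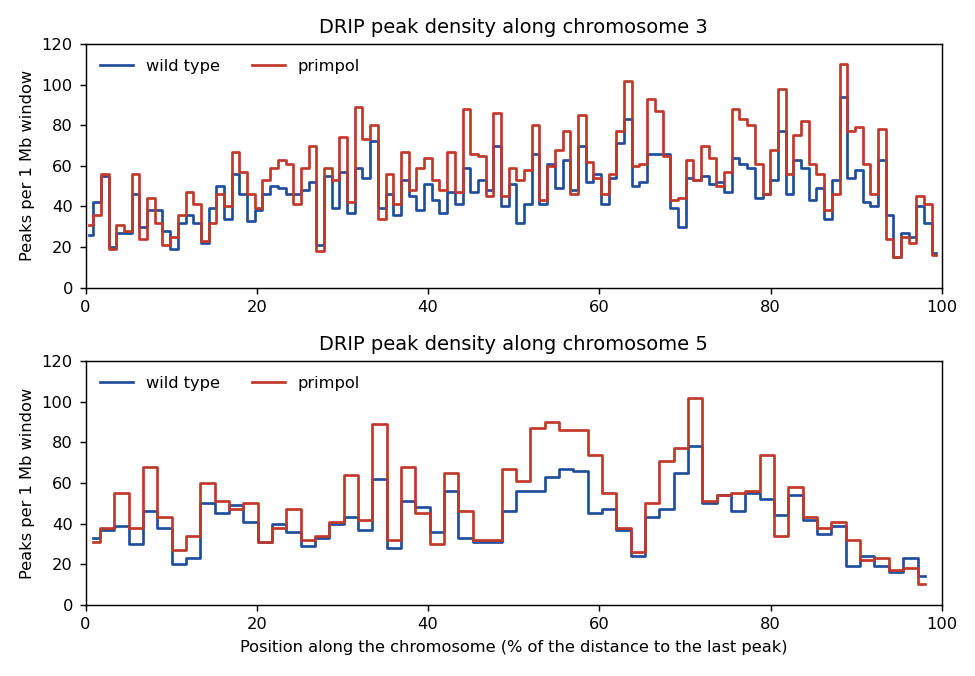
Number of DRIP peaks in each 1 Mb window (y axis) against position, as a percentage of the distance to the last peak (x axis), for wild type (blue) and *primpol* (red). Both lines rise and fall together, reach 94 and 110 peaks in the richest window of chromosome 3, and drop to 14 and 10 peaks in the last full window of chromosome 5.

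The richest windows lay in the interior. The window from 98 to 99 Mb of chromosome 3 held 94 wild type and 110 *primpol* peaks and was the richest in both lists. Peaks covered 13.8% of it in wild type and 16.4% in *primpol*. It was followed by the window from 70 to 71 Mb, with 83 and 102 peaks, and the window from 90 to 91 Mb, with 77 and 98 peaks. These ranked 2 and 3 in both lists. In the first of these windows 68 wild type peaks had a *primpol* partner, that is an overlapping peak of the other list, and 26 had none. Of its *primpol* peaks 69 had a wild type partner and 41 had none.

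The window from 42 to 43 Mb was the richest of chromosome 5 in both lists, with 78 wild type and 102 *primpol* peaks. The next in wild type, from 33 to 34 Mb and from 34 to 35 Mb, adjoined each other and held 67 and 66 wild type peaks. They held 86 *primpol* peaks each, and tied at rank 5 in that list. The 11 richest windows of chromosome 3 held 15.4% of its wild type peaks and 16.4% of its *primpol* peaks, and 7 of these 11 windows were the same in both lists. The 6 richest windows of chromosome 5 held 16.4% and 18.6% of the peaks, and 5 of the 6 were the same. None of these windows lay within the first or last 10% of its chromosome.

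The poorest windows were mostly near the ends. On chromosome 3 the window from 105 to 106 Mb held 15 peaks in each list and that from 110 to 111 Mb held 17 in wild type and 16 in *primpol*. The window from 11 to 12 Mb, with 19 and 25 peaks, was the next poorest in wild type and ranked 10 from the bottom in *primpol*. The poorest windows of chromosome 5 were at 58 to 59 Mb, with 14 and 10 peaks, and at 56 to 57 Mb, with 16 and 17 peaks. The windows from 53 to 54 Mb and from 55 to 56 Mb followed in wild type with 19 peaks each. They held 32 and 23 in *primpol*, where the former ranked 11. Of the 11 poorest windows of chromosome 3, 8 lay within the first or last 10% of its length in each list, where 19.8% of all its windows lie. On chromosome 5 this held for 5 of the 6 poorest windows in *primpol*, against 18.6% of all windows. In wild type it held for 3 or 4 of the 6, as 2 windows tied at 23 peaks. All of these lay in the last 10% of chromosome 5. Windows in its first 10% held 30 to 46 wild type and 31 to 68 *primpol* peaks.

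Counts in both genotypes followed each other closely. The Spearman correlation across windows was 0.897 on chromosome 3 (111 windows) and 0.913 on chromosome 5 (59 windows). Shared peaks enter both counts, and windows of 1 list are no replicates, so this is a description. With peaks that had no partner alone, the correlation was 0.210 and 0.191. There were more *primpol* than wild type peaks in 87 of the 111 windows (78.4%) on chromosome 3 and in 48 of the 59 windows (81.4%) on chromosome 5. Over all 1001 full windows of the assembled chromosomes the share was 70%. With the *primpol* list scaled to the wild type input, 1 window of chromosome 3 and 0 windows of chromosome 5 had more *primpol* peaks. The scaling can only lower *primpol* counts, so it cannot decide this direction, which was not settled. The ratio of *primpol* to wild type peaks ran from 0.667 to 1.66 between the windows of chromosome 3, and from 0.714 to 1.68 on chromosome 5.

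**Figure D2:**
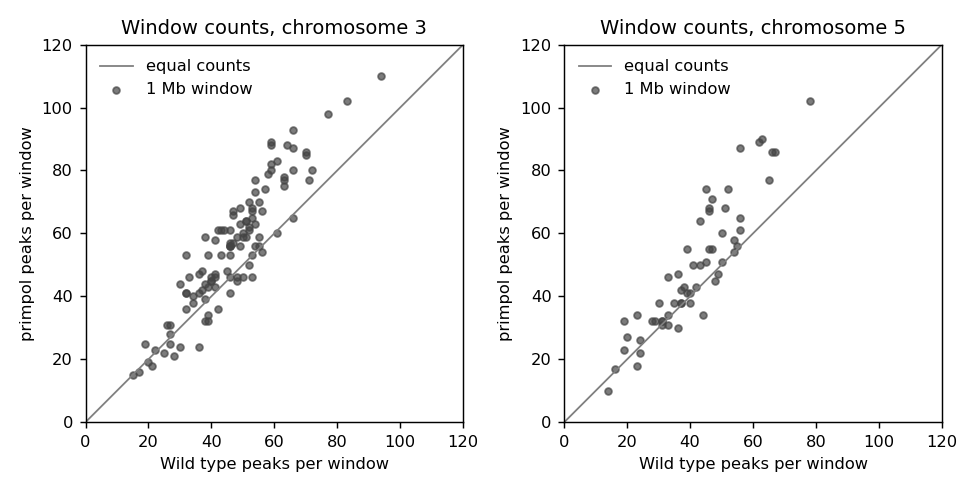
Number of *primpol* peaks (y axis) against wild type peaks (x axis) in each 1 Mb window, with the line of equal counts in grey. In the lists as deposited, 87 of 111 windows of chromosome 3 and 48 of 59 of chromosome 5 lie above the line. When the *primpol* list is scaled to the wild type input, which can only remove *primpol* peaks, 1 and 0 do so.

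Each chromosome was also divided into 10 segments of equal length, of 11.1 Mb on chromosome 3 and 5.97 Mb on chromosome 5. On chromosome 3 the segments at either end were the poorest, with 34.1 and 34.9 wild type peaks per Mb, against 56.7 in segment 9. The first segment was the only one in which both lists had almost the same number, 380 and 381 peaks. In the other 9 segments the ratio of *primpol* to wild type peaks was between 1.14 and 1.26. Chromosome 5 had a different profile. Its first segment held 37.4 wild type peaks per Mb, its last only 17.4, and the richest were segment 6 with 58.1 and segment 8 with 57.1. The ratio was highest in segment 6, at 1.38 from 347 and 479 peaks, and lowest in the last segment, at 0.981 from 104 and 102 peaks.

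Over the first and last segments together, the ratio was 1.07 on chromosome 3 (768 and 825 peaks) against 1.21 in the 8 segments between them (4427 and 5340 peaks). On chromosome 5 it was 1.15 (327 and 375 peaks) against 1.196 (2118 and 2533 peaks). The 2 ends of chromosome 5 differed, with a ratio of 1.22 in the first segment (223 and 273 peaks) and 0.981 in the last. With the *primpol* list scaled to the wild type input, the ratios were 0.624 at the ends and 0.722 between them on chromosome 3, and 0.621 and 0.686 on chromosome 5. When only peaks that reached a −log10 q-value of 2 were counted, the order on chromosome 5 turned, to 1.74 at the ends from 35 and 61 peaks and 1.47 between them. Local background at the peaks, relative to the median of the list, was lowest in the last segment, at 0.874 in wild type and 0.894 in *primpol* on chromosome 3 and at 0.897 and 0.860 on chromosome 5. Its part in the lower number of peaks was not tested.

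**Figure D3:**
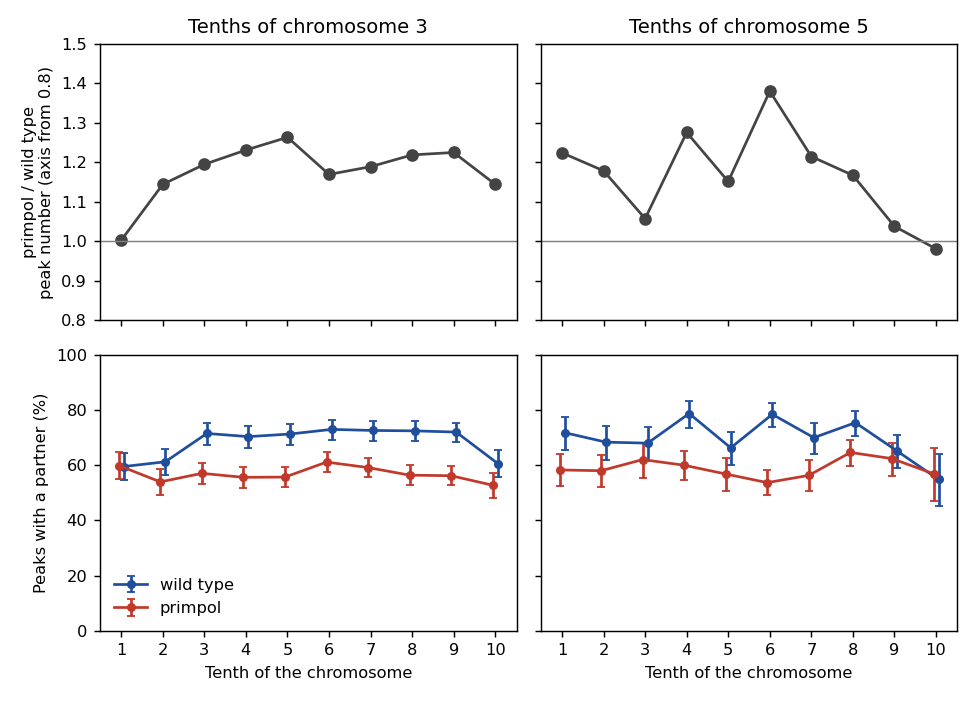
Ratio of *primpol* to wild type peak number (upper row, axis from 0.8) and percentage of peaks with a partner in the other list (lower row, bars are 95% Wilson intervals) in 10 equal segments of chromosomes 3 and 5, for wild type (blue) and *primpol* (red). The ratio is 1.00 in the first segment of chromosome 3 and 1.38 in segment 6 of chromosome 5. There the shares with a partner, 78.4% and 53.7%, lie farthest apart on that chromosome. As 272 and 257 peaks have a partner there, the shares differ mainly through the peak numbers.

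Gaps between neighbouring peaks varied widely in length. The median gap from the end of a peak to the start of the next on chromosome 3 was 11161 bp for wild type against 8830 bp for *primpol*, with 95% intervals of 10551 to 11765 bp and 8461 to 9204 bp. It was 11927 bp (10982 to 12556 bp) and 9212 bp (8597 to 9893 bp) on chromosome 5. The means, between 16676 and 23060 bp, were well above the medians. The longest 10% of gaps on chromosome 3 began at 49848 bp for wild type and 40885 bp for *primpol*. On chromosome 5 they began at 55464 and 46305 bp.

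Many peaks had a close neighbour. Gaps of at most 2 kb made up 20.0% of wild type and 20.5% of *primpol* gaps on chromosome 3, and 19.6% and 22.9% on chromosome 5. Over the whole lists the shares were 19.55% and 20.7%. No gap was shorter than 733 bp in wild type or 749 bp in *primpol*, which is 4 times the fragment length used by the peak caller, 183 and 187 bp, plus 1. Closer regions are thus absent from the lists, and the narrowest peaks of each list were exactly 1 fragment long. When peaks with gaps of at most 2 kb were grouped into runs, chromosome 3 had 879 wild type runs with 1919 peaks (36.9% of its peaks) and 1043 *primpol* runs with 2308 peaks (37.4%). Chromosome 5 had 405 runs with 884 peaks (36.2%) in wild type and 533 runs with 1200 peaks (41.3%) in *primpol*. Over the whole lists, runs held 35.4% of wild type and 37.3% of *primpol* peaks. Most runs were short. The largest had 5 peaks in wild type on both chromosomes, and 6 and 5 in *primpol*. Lengths of successive gaps were almost unrelated, with a Spearman correlation of 0.011 and 0.057 on chromosome 3 and 0.074 and 0.102 on chromosome 5 in wild type and *primpol*.

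**Figure D4:**
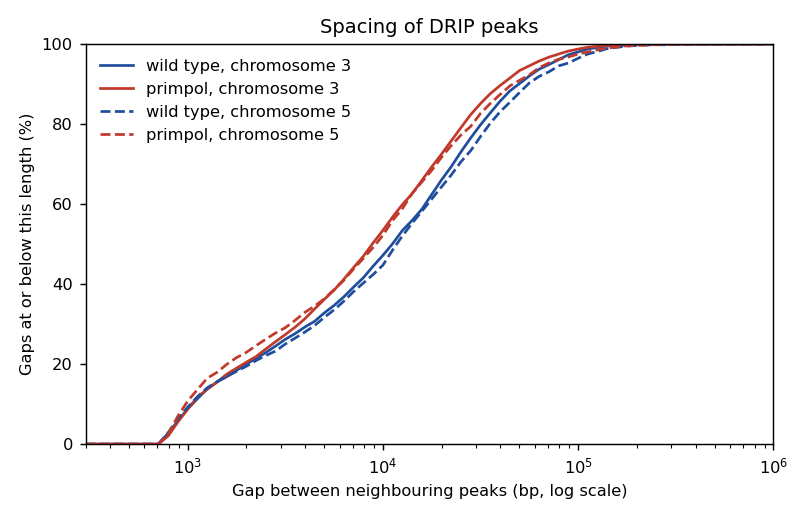
Percentage of gaps between neighbouring peaks (y axis) at or below a given length in bp (x axis, log scale) for wild type (blue) and *primpol* (red) on chromosome 3 (solid) and chromosome 5 (dashed). The curves start at 733 and 749 bp, and the *primpol* curves lie to the left through the middle of the range, with medians of 8830 and 9212 bp against 11161 and 11927 bp in wild type.

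The largest runs met between 2 and 5 peaks of the other list. Chromosome 3 had 4 wild type runs of 5 peaks, of which the first 3 by position are given, and chromosome 5 had 2 of 5 peaks and 5 of 4 peaks, of which the first is given. On chromosome 5, 5 wild type peaks between 3041732 and 3058318 covered 70.8% of 16.6 kb, and 4 of them overlapped a *primpol* peak. The *primpol* list also had 5 peaks there, from 3043300 to 3058925. A second run of 5 wild type peaks, from 51739305 to 51749138, met only 3 *primpol* peaks, and a run of 4, from 5211105 to 5217753, also met 3. On chromosome 3, 5 wild type peaks from 20411955 to 20419378 all overlapped just 2 *primpol* peaks. Runs of 5 were also found from 29637309 to 29649250, where 5 *primpol* peaks lay, and from 37391500 to 37399242, where 3 lay. The largest run of both chromosomes, 6 *primpol* peaks from 69947162 to 69966947 on chromosome 3, covered 71.0% of 19.8 kb and met 5 wild type peaks.

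Stretches of over 100 kb without a peak numbered 103 in wild type and 78 in *primpol* on chromosome 3, and took up 12.7% and 9.89% of its length. Chromosome 5, although much shorter, had 87 and 73 of them, which took up 21.7% and 19.4%. With the peaks of both lists pooled, 44 such stretches remained on chromosome 3 and 45 on chromosome 5, of which 22 and 21 were centred within the first or last 10% of the chromosome. Over all other sequences such gaps took up 26.2% of the length in wild type and 23.4% in *primpol*. In the same order, they took up 12.6% and 9.50% of chromosome 1 and 5.49% and 4.18% of chromosome 2. On chromosome 4 they took up 17.7% and 15.4%. Among chromosomes 1 to 5, chromosome 5 thus had the largest share in each list.

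The longest stretch free of peaks was in the same place in both genotypes. On chromosome 5 no wild type peak lay between 5631043 and 6489105 (858 kb), and no *primpol* peak between 5631466 and 6438027 (807 kb). The wild type stretch met 5 *primpol* peaks. The stretch of chromosome 3 ran from 11707502 to 12265228 in wild type and from 11707866 to 12265272 in *primpol* (558 and 557 kb). These edges differed by less than 1 kb between lists. Next on chromosome 5 came 358594 bp from 58950575 in both lists together, and then 219164 bp from 56892651. On chromosome 3 the next were 231672 bp from 105677659 and 218692 bp from 105457224. These adjoined each other near the end of the chromosome. What the assembly holds in these stretches was not analysed here.

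Other long stretches were empty in 1 list but not in the other. On chromosome 3 a stretch of 283 kb from 3710042 without a wild type peak met 6 *primpol* peaks, and 306 kb from 3105302 without a *primpol* peak met 8 wild type peaks. These lie within 1 Mb of each other and go in opposite directions. On the same chromosome, 237 kb from 11469705 without a wild type peak met 5 *primpol* peaks. On chromosome 5, 304 kb from 21838799 without a wild type peak met 3 *primpol* peaks, and 335 kb from 55929178 without a *primpol* peak met 2 wild type peaks. Some stretches shared by both lists were longer in *primpol* than the stretch empty in both. That from 58950440 on chromosome 5 was 403 kb long in *primpol* and met 2 wild type peaks, and that from 105676207 on chromosome 3 was 233 kb long and met 1.

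Peak widths were alike on both chromosomes. The median on chromosome 3 was 789 bp for wild type against 850 bp for *primpol*, with interquartile ranges of 437 to 1579 bp and 450 to 1725 bp. Those of chromosome 5 were 839 and 861 bp, with interquartile ranges of 457 to 1651 bp and 466 to 1741 bp. The 95% intervals of the medians were 766 to 820 and 828 to 874 bp on chromosome 3. They were 805 to 871 and 824 to 893 bp on chromosome 5, which has fewer peaks. These intervals cover counting error alone and cannot decide whether widths differ between genotypes. Width rose weakly with height across peaks, with a Spearman correlation of 0.262 in wild type and 0.366 in *primpol* on chromosome 3 and of 0.230 and 0.384 on chromosome 5. Before immunoprecipitation the DNA was cut with restriction enzymes, so that the length of the fragments limits how narrowly a hybrid can be placed.

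Peaks of 5 kb or more took up a larger share of the covered length than of the peak number. Chromosome 3 had 152 in wild type and 190 in *primpol*, or 2.93% and 3.08% of its peaks, which made up 14.6% of the covered bases in each list. Chromosome 5 had 77 and 111, or 3.15% and 3.82%, which made up 15.4% and 17.9%. Over the whole lists such peaks were 2.78% and 3.12% of all peaks and made up 14.2% and 15.1% of the covered bases. All but 1 of these wide peaks overlapped a peak of the other list, which was found for 152 of 152 and 189 of 190 on chromosome 3 and for 77 of 77 and 111 of 111 on chromosome 5. Over the whole lists the share was 100% and 99.9%, and wide peaks have more room to meet a partner. With an overlap of 50% of both peaks required, 142 and 168 of those on chromosome 3 and 74 and 88 on chromosome 5 had a partner. The exception, named after its values were seen, was a *primpol* peak of 5965 bp on chromosome 3 at 69311910 to 69317874, and its height was 20.8.

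The 3 widest wild type peaks of each chromosome each overlapped a single *primpol* peak of like width. Starts differed by 9 to 132 bp and ends by 24 to 261 bp. The widest peak of chromosome 5 ran from 32886675 to 32905577 in wild type (18903 bp) and from 32886650 to 32905830 in *primpol* (19181 bp). The next was at 47229245 to 47241437 (12193 bp) in wild type and 47229236 to 47241461 (12226 bp) in *primpol*. It was followed by a peak at 35525312 to 35535825 (10514 bp), which in *primpol* ran from 35525266 to 35535653 (10388 bp). The widest wild type peak of chromosome 3 lay at 71101597 to 71115024 (13428 bp), with a *primpol* partner of 13557 bp, and the next at 86639192 to 86651941 (12750 bp), with a partner of 12848 bp. Another, at 44472590 to 44484287, was 11698 bp wide with a partner of 11957 bp.

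The widest *primpol* peak of chromosome 3, of 14382 bp at 97642933 to 97657314, was different. It overlapped 2 wild type peaks of 13404 bp in all. The widest peak of chromosome 5 had a height of 16.0 in wild type and 22.6 in *primpol*, at percentiles 75.5 and 86.6 of the lists. Height is the number of overlapping fragments averaged over the peak, on the scale of the input of that genotype, so the heights of both lists have no common scale and percentiles within a list are given.

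No peak was among both the 3 highest and the 3 widest of its list on either chromosome. The highest on chromosome 3, at 55406126 to 55406820, was just 695 bp wide, with a height of 29.6 in wild type (rank 35 in the whole list) and 33.6 in *primpol* (rank 104). Its fold enrichment over input was 4.46 and 3.32. The second in wild type, at 48254241 to 48255158, had a height of 25.4, while the *primpol* peak that overlapped it ranked 12 on the chromosome. The third, at 87167394 to 87167689, fell far behind in *primpol*, from a height percentile of 99.3 to 69.0. In *primpol* the second was at 5721390 to 5722808, with a height of 31.0 and a fold enrichment of 7.72. Its wild type partner had a height of 20.4 and a fold enrichment of 6.14. Local background at this peak was 0.448 times the median of the *primpol* list. The third in *primpol*, at 67205060 to 67206378, had a height of 28.6 and ranked 4 on the chromosome in wild type.

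Chromosome 5 carried the highest peak of both lists, at 36053491 to 36055044, with a height of 75.8 in wild type and 82.9 in *primpol*. Its fold enrichment was 9.62 in wild type and 6.68 in *primpol*, and its −log10 q-value was 45.7 and 37.2. The second in both lists lay at 51594629 to 51595192, with a height of 35.2 in wild type and 39.4 in *primpol*. Its fold enrichment, unlike that of the first, was the higher in *primpol*, at 5.13 against 4.26. The third in wild type, at 16906229 to 16906814, had a height of 25.5 and ranked 20 on the chromosome in *primpol*. The third in *primpol*, at 25932879 to 25940841, was both high and wide, with a height of 30.5 over 7963 bp, and its wild type partner was 8577 bp wide with a height of 20.6.

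Most peaks on these chromosomes were weak. On chromosome 3, 85.9% of the wild type and 81.4% of the *primpol* peaks had a −log10 q-value below 2, as did 86.5% and 82.9% on chromosome 5, compared with 82.1% and 78.1% over the whole lists. Only 6 peaks in each list on chromosome 3 reached a −log10 q-value of 5, and all of them had a partner. On chromosome 5 there were 9 in wild type, of which 8 had a partner, and 5 in *primpol*, all with one. These were 0.116% and 0.0973% of the peaks of chromosome 3 and 0.368% and 0.172% of those of chromosome 5, against 0.820% and 1.10% of the whole lists. Outside chromosomes 3 and 5 there were 325 wild type and 524 *primpol* peaks of that strength. Only 79 of 32893 and 121 of 38280 peaks on the other assembled chromosomes were among them, and the rest lay on other sequences. The median height lay below the middle of its list, at percentile 39.8 in wild type and 43.1 in *primpol* on chromosome 3, and at 43.9 and 46.2 on chromosome 5. It was lower still on chromosome 1, at 35.2 and 38.5, and on chromosome 4, at 38.7 and 42.6. On chromosome 2 it was at 84.5 and 87.0. By fold enrichment the percentiles were 53.8 and 52.2 on chromosome 3 and 51.1 and 48.6 on chromosome 5. Local background relative to the list median was 0.951 and 0.968 on chromosome 3 and 0.981 and 0.994 on chromosome 5, compared with 1.38 and 1.43 on chromosome 2.

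Sharing between genotypes was like that of the whole lists. On chromosome 3, 3600 of 5195 wild type peaks (69.3%, 95% Wilson interval 68.0 to 70.5%) shared 1 bp or more with a *primpol* peak, and 3506 of 6165 *primpol* peaks (56.9%, 55.6 to 58.1%) overlapped a wild type peak. The shares on chromosome 5 were 1742 of 2445 (71.2%, 69.4 to 73.0%) and 1709 of 2908 (58.8%, 57.0 to 60.5%). Over all peaks the shares were 69.7% in wild type and 57.8% in *primpol*. All these intervals held the value of the whole list. In the deposited lists, peaks with a partner were nearly equal in number in both genotypes. Which share is higher thus follows the peak numbers and is no separate result on sharing. With the *primpol* list scaled to the wild type input, the higher share was that of *primpol*. It was then 51.9% of wild type and 69.3% of *primpol* peaks on chromosome 3 and 52.4% and 72.0% on chromosome 5. Counted in bases, 69.4% of the wild type and 55.7% of the *primpol* covered length on chromosome 3 lay in both lists, and 69.7% and 56.9% on chromosome 5.

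The share rose steeply with width. On chromosome 3, among the narrowest of 4 equal groups of wild type peaks (183 to 437 bp), 46.8% had a partner, and among the widest (1579 bp or more) 96.2% did. In *primpol* the values were 31.0% and 91.8%. On chromosome 5 they were 47.1% and 98.0% in wild type and 33.4% and 93.1% in *primpol*. With height the rise was smaller in wild type, from 52.0% to 84.2% on chromosome 3 and from 58.1% to 84.8% on chromosome 5. In *primpol* it went from 30.9% to 83.0% and from 35.6% to 82.4%.

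**Figure D5:**
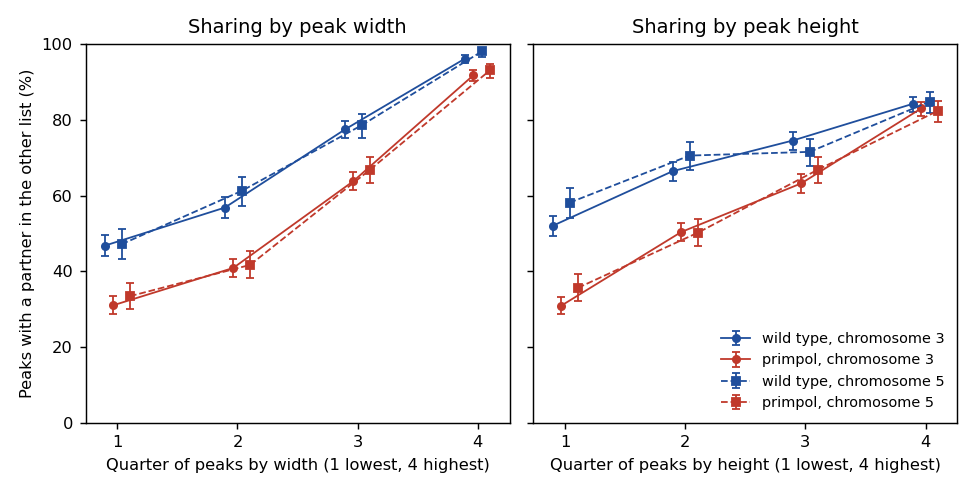
Percentage of peaks with a partner in the other list (y axis, bars are 95% Wilson intervals) in 4 equal groups of peaks by width (left) and height (right), for wild type (blue) and *primpol* (red) on chromosome 3 (circles, solid) and chromosome 5 (squares, dashed). In the widest group the share is 96.2% and 98.0% in wild type and 91.8% and 93.1% in *primpol*.

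Along chromosome 3 the wild type share was lowest at both ends, at 59.5% (54.5 to 64.3%) in the first of the 10 segments and 60.6% (55.6 to 65.3%) in the last. It was 61.2% in segment 2 and between 70.3 and 72.9% in segments 3 to 9. The *primpol* share showed no such shape, with 59.8% in the first segment, 52.7% in the last and a highest value of 61.1% in segment 6. For chromosome 5 the wild type share was lowest in the last segment, at 54.8% (45.2 to 64.0%), and highest in segments 4 and 6, at 78.7% (73.4 to 83.1%) and 78.4% (73.8 to 82.4%). Segment 6 had the densest *primpol* peaks of the chromosome, at 80.2 per Mb, which covered 13.6% of it.

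For peaks without a partner, the distance to the nearest peak of the other list was measured. On chromosome 3, 1595 wild type peaks had none, and the nearest *primpol* peak was at a median distance of 3737 bp. It was within 1 kb for 405 of them (25.4%). For the 2659 *primpol* peaks without a partner the median distance was 5522 bp, with 464 (17.5%) within 1 kb. The distances on chromosome 5 were 4747 bp for 703 wild type and 6146 bp for 1199 *primpol* peaks, with 24.6% and 17.8% within 1 kb. A distance of over 50 kb was found for 27 and 42 peaks on chromosome 3 and 25 and 30 on chromosome 5. The nearest peak of their own list was at a median distance of 5695 and 4311 bp on chromosome 3. On chromosome 5 it was at 6590 and 4231 bp. Distances from random positions were not measured, so closeness beyond that given by peak density is not shown. Peaks without a partner were narrower, with medians of 492 and 550 bp on chromosome 3 against 1086 and 1336 bp for those with one.

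The highest peaks without a partner were all under 1 kb wide. On chromosome 5 a wild type peak at 48484323 to 48484575 stood out, with a height of 23.8 at percentile 99.4 of its list and a −log10 q-value of 5.12. It was the 1 peak of that strength without a partner. The next were at 44836533 to 44836833, with a height of 20.1, and at 16770273 to 16770457, with a height of 19.4. Those of chromosome 3 were at 60022818 to 60023442, at 26723934 to 26724505 and at 27419243 to 27419585, with heights of 19.8, 19.1 and 19.0.

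Among these highest peaks, those of the *primpol* list had low fold enrichment, at percentiles 0.631 to 39.6 of their list. Those of wild type were at 51.8 to 98.0. Over all peaks without a partner, median percentiles were alike, at 44.0 in wild type and 44.2 in *primpol* on chromosome 3. They were 39.6 and 40.2 on chromosome 5. The highest *primpol* peak without a partner on chromosome 5 lay at 39101991 to 39102260, with a height of 25.2. It had a fold enrichment of only 2.00, at percentile 4.35 of the list. It was followed by peaks at 43208995 to 43209644, with a height of 23.7, and at 56581531 to 56581810, with a height of 23.2. On chromosome 3 they lay at 29611262 to 29611995, at 98385802 to 98386714 and at 62851045 to 62851257, with heights of 23.3, 22.5 and 22.4. Local background was between 1.36 and 1.73 times the list median at these *primpol* peaks, and between 1.04 and 1.46 times at those of wild type.

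Some peaks were single in 1 genotype and split in the other. On chromosome 3, 206 wild type peaks (3.97%) overlapped more than 1 *primpol* peak, and 290 *primpol* peaks (4.70%) overlapped more than 1 wild type peak. The numbers on chromosome 5 were 133 (5.44%) and 163 (5.61%). Over the whole lists the shares were 3.88% and 4.94%. At most 4 peaks were joined in this way on chromosome 3, and at most 3 on chromosome 5. These peaks were wide, with medians between 3106 and 3525 bp.

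Pairs in which each peak overlapped the other alone numbered 2824 on chromosome 3 and 1292 on chromosome 5. Of the pair, the *primpol* peak had the greater width in 1700 cases (60.2%) on chromosome 3 and 772 pairs (59.8%) on chromosome 5, against 60% of pairs in the whole lists. The median ratio of widths, *primpol* over wild type, was 1.08 and 1.07. The starts differed by a median of 213 bp on chromosome 3 and 220 bp on chromosome 5, and the ends by 207 and 228.5 bp. Both edges lay within 50 bp of each other in 134 pairs (4.75%) and 57 pairs (4.41%), against 5.91% over all pairs.

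Ranks by height were kept in part. The Spearman correlation of height across pairs was 0.555 on chromosome 3 and 0.573 on chromosome 5, and that of fold enrichment 0.356 and 0.440. The height percentile was higher in *primpol* in 1774 pairs (62.8%) on chromosome 3 and 799 pairs (61.8%) on chromosome 5, compared with 61.7% over all pairs. By fold enrichment it was higher in 49.0% and 50.9%. The height ratio within pairs had a median of 1.31 on both chromosomes, the ratio of local background a median of 1.53 and 1.51, and the ratio of fold enrichment a median of 0.898 and 0.902. Since heights carry the input depth of their own list, these ratios give no direction between genotypes. Nor do the height percentiles, as each depends on the other peaks of its list. On chromosome 3, peaks without a partner were 30.7% of wild type and 43.1% of *primpol* peaks. These lay low in their lists, at median height percentiles of 28.5 and 30.5.

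Changes of rank were compared for the 1770 pairs of chromosome 3 and 854 of chromosome 5 in which either peak was higher than the median of its list. The height percentile of a peak on chromosome 5, at 49399686 to 49399957, rose most among these, by 64.5 points, from a height of 10.3 to 19.4, although its fold enrichment percentile went from 48.6 to 41.4. It fell by 74.96 points at 13659619 to 13660062, from a height of 18.4 to 14.7, where fold enrichment rose by 55.7 points. For chromosome 3 the largest rise among these pairs was 78.3 points at 101559834 to 101561045, with a rise of 28.5 points by fold enrichment. The percentile fell by 72.6 points at 51723999 to 51724181, and by fold enrichment it fell by 56.4 points. Both measures thus moved the same way in the pairs of chromosome 3 and opposite ways in those of chromosome 5.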

How the data were processed

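The authors trimmed reads with Trim Galore 0.4.4, aligned them with bowtie2 to Galgal5 and to the *Drosophila* genome, kept unique matches and separated the species. The authors then ran MACS2 2.1.1.20160309 in broad mode on each genotype against its own input, with q-value cutoffs of 0.05 and 0.1 per the file headers. The deposited signal is the mean pileup of a peak (height), and the deposited fold enrichment is a ratio, height plus 1 over local background plus 1. The deposited −log10 p-values and q-values are those of the caller, and width is in bp. No spike-in scaling is in these values, and libraries treated with RNase H were left out. How replicates were merged is not given in the sources used here.

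Peaks were assigned to windows by their midpoints. Partners overlapped by at least 1 bp. Local background was derived from height and fold enrichment. Shares have 95% Wilson intervals, medians 95% order-statistic intervals, and ratios of list shares 95% intervals on the log scale. For scaling to the wild type input depth, *primpol* height and background were multiplied by 0.763, −log10 p was shifted under a Poisson model, and peaks at or above 2.65 were kept. Functions were tested on simulated data. For each chromosome the regions named were the 3 highest, 3 widest and 3 highest partnerless peaks of each list, the 3 richest and poorest windows and 3 largest runs in wild type, the 3 longest empty stretches, and the pairs with the largest rise and fall in height percentile, where either peak of the pair exceeded the median height of its list. The largest *primpol* run, the *primpol* run beside a named wild type run and a lone wide peak were named after their values were seen. The regions and measures were chosen with earlier results of these data known. Python 3.11.15, numpy 2.4.6, pandas 2.3.3, scipy 1.17.1 and matplotlib 3.10.9 were used. Gene context and base sequence were planned only with a Galgal5 annotation and genome, and were not analysed here.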

Additional observations from a re-analysis of the deposited data

How the results depend on the processing

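No paired analysis was possible because both replicates of a genotype share 1 peak list, and for the same reason no replicate could be left out. Of 64 alternative values, 14 kept their main value within its interval or their direction within 1.5 times, 44 moved and 6 reversed. All 6 reversals came from scaling of *primpol* to the wild type input, which can only remove *primpol* peaks and left 3676 and 1656 of them. The ratio of peak numbers was then 0.708 on chromosome 3 and 0.677 on chromosome 5, with 0.624 and 0.621 in the first and last segments and 0.722 and 0.686 between them. Windows with more *primpol* peaks became 0.901% on chromosome 3 and 0% on chromosome 5. The share of peaks with a partner became 51.9% (wild type) and 69.3% (*primpol*) on chromosome 3, and 52.4% and 72.0% on chromosome 5.

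With an overlap of 50% of both peaks the shares were 34.6% and 29.2% on chromosome 3, and 33.2% and 27.9% on chromosome 5. Among peaks that reached a −log10 q-value of 2 they were 50% and 31.9%, and 54.4% and 35.8%. The median widths of such peaks were 1406 and 1595 bp, and 1255 and 1801 bp. Their median gaps were 87913 and 50454 bp, and 95687 and 64174 bp, and the ratio at the ends of chromosome 5 was 1.74. When peaks within 1 kb were merged, widths had medians of 873 and 949 bp, and 914 and 987 bp, and gaps had medians of 13051 and 10344 bp, and 13794 and 11037 bp. In windows of 500 kb the correlation of counts on chromosome 3 was 0.817, and the richest windows of chromosome 5 held 18.9% and 20.3% of peaks. With windows of 2 Mb those of *primpol* held 16.9%. Without shared peaks the correlations were 0.210 and 0.191. The median percentile by fold enrichment was 53.8 and 52.2 on chromosome 3 and 51.1 and 48.6 on chromosome 5. By −log10 q-value it was 46.6 and 47.4 on chromosome 3, and 46.2 in wild type on chromosome 5. The depth-scaled and q-filtered ratios of the chromosome ends and the depth-scaled window shares were chosen after seeing the data. The cause of these shifts was not tested.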
